A study of Mus musculus with 3 samples.

Results

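The genes described here are 10 genes of the lipid-associated macrophage programme, Spp1, Gpnmb, Trem2, Fabp5, Lgals3, Cd9, Cd63, Ctsk, Mfge8 and Mmp12, out of 22954 genes in the deposited tables. They were named as a list, for a programme described in scar-associated macrophages of fibrotic lung and for their level in the alveolar macrophages (AM) of the conventionally irradiated lung. The contrast of CONV with the other libraries in AM therefore chose them, and in AM it is given as a description. Their values were followed in 3 libraries by cell class, over 19619 cells, of which 1947 were gated as AM.

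Each library came from the lung of 1 female wild-type C57BL6/J mouse, collected 5 months after irradiation of the thorax on both sides with 13 Gy. The CONV mouse was irradiated at a conventional dose rate and the FLASH mouse at an ultra-high dose rate. The CONV AsiDNA mouse had CONV irradiation on the day of a 200 mg/kg injection of AsiDNA, after 2 daily injections of 100 mg/kg. AsiDNA is a cholesterol-coupled double-stranded oligonucleotide that mimics broken DNA ends. All 3 mice were irradiated, and unirradiated controls were not used here. A single mouse per condition allows no test, and intervals cover the sampling of cells of that mouse only.

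Macrophages that take up dead cells and lipid load their lysosomes and switch on a shared set of genes for lipid binding, lysosomal proteolysis and matrix remodelling. TREM2, a surface receptor for lipids and lipoproteins, is known as an upstream receptor of this state. SPP1, GPNMB and FABP5 are its usual markers in fibrotic lung, liver and adipose tissue. AM are the resident phagocytes of the airspace and clear surfactant, whereas interstitial macrophages (IM) reside in the lung tissue.

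Values are given on 2 scales. The level is the adjusted CPM, the sum of adjusted counts of a gene per 1000000 adjusted counts of the class, where an adjusted count is the whole number whose logarithm was deposited. The share is the percentage of cells of the class with a value above 0, with an exact Clopper-Pearson 95% interval. Where 3 values follow each other without a name, they are those of CONV, CONV AsiDNA and FLASH, in that order. Levels are compared between classes and libraries and not between genes.

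Promoter windows of 9 of the members are in the RefSeq table of GRCm38.p6 (11 windows, each of 250 bases before and 50 after a start site), and Fabp5 has no entry in it. The bases before the start site are shown for 4 genes whose windows held at least 2 matches to the motifs searched, all on the plus strand and written 5′ to 3′. They are Spp1 (chr5:104434861-104435110), Trem2 (chr17:48346151-48346400), Ctsk (chr3:95498960-95499209) and the downstream start of Mmp12 (chr9:7347124-7347373). Capitals mark matches, on either strand, to GAGGAAG (core of PU.1 sites), TGANTCA (AP-1 sites), CATGTG (an E-box) or TATAAA.
Spp1: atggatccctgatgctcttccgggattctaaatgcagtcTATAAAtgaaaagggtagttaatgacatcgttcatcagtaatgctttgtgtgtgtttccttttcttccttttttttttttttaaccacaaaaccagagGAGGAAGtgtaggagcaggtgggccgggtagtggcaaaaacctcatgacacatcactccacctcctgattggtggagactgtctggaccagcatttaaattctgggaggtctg
Trem2: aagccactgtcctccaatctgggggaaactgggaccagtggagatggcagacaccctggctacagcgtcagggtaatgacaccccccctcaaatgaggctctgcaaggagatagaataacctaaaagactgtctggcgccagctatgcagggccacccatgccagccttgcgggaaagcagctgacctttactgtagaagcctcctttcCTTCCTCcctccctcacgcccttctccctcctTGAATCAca
Ctsk: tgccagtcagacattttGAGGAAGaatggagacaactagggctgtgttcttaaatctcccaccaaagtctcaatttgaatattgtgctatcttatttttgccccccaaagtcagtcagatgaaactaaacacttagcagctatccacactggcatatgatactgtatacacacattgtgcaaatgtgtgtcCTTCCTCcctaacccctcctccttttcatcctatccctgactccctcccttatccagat
Mmp12: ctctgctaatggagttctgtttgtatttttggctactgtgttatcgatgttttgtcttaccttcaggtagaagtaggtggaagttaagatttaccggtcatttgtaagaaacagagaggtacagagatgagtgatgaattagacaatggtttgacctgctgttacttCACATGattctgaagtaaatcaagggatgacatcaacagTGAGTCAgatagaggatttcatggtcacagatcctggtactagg

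GAGGAAG, or its reverse complement CTTCCTC, was present in 5 of the 11 member windows (Spp1, Trem2, Ctsk, Mmp12 and Cd63). The share over all 32851 windows of the same length was 13.6%. It began 113 bases before the start in Spp1, 41 in Trem2, and 233 and 59 in Ctsk, and in Mmp12 it lay in the window of the upstream start, which is not shown. TGANTCA was present in 3 of the 11 member windows (Trem2, Mmp12 and Gpnmb) and in 7.81% of all windows, and in Gpnmb it lay after the start site. CATGTG was found in 2 member windows (Cd9 and Mmp12) against 14.2% of windows, and TATAAA in 2 (Spp1, and Mmp12 after the start) against 13.6%. CACGTG, another E-box, was in no member window and in 7.15% of all windows. These are matches of letters and describe no binding.

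On GRCm38, Spp1 spans chr5:104435118-104441050, Gpnmb chr6:49036546-49070929, Trem2 chr17:48346401-48354147, Fabp5 chr3:10012548-10016607 and Lgals3 chr14:47367751-47386160, all on the plus strand. Cd63 spans chr10:128900989-128912822, Ctsk chr3:95499256-95509362 and Mmp12 chr9:7344381-7369499 on the plus strand, and Cd9 chr6:125460266-125494791 and Mfge8 chr7:79133768-79149060 on the minus strand. Fabp5, Cd9 and Cd63 each have a named processed pseudogene, and Spp1, Cd9 and Mmp12 overlap another annotated gene. The sources used here do not say how reads shared with them were counted.

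The libraries kept 6371 (CONV), 6981 (CONV AsiDNA) and 6267 (FLASH) cells, with median adjusted counts per cell of 3450, 3678 and 3621. The median mitochondrial share was 0.628%, 0.180% and 1.35%. Pairs of libraries shared 9 to 17 barcodes. The gate assigned cells to 17 classes by marker genes, none of them a member, and left 5.55 to 7.55% of cells without a class. Values of the members in B and T cells, which should lack them, are also given. With the adjustment of the deposited values unknown, these values do not measure background signal. In B cells 10, 9 and 7 members were listed at 0, and the highest share of any member was 0.0862%. In T cells the highest was 0.761%, for Lgals3 in FLASH, at median depths of 3299 to 3559.

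AM made up 12.9% of CONV cells (95% interval 12.1 to 13.7%), 9.31% of CONV AsiDNA cells (8.64 to 10.0%) and 7.60% of FLASH cells (6.95 to 8.28%), that is 821, 650 and 476 cells. The label came from the marker genes, so their values describe it and do not check it. All 10 AM markers had counts in every library, and the median AM had markers of the other classes at 0, apart from 1 mesothelial marker in CONV AsiDNA and FLASH. The AM markers themselves differed between libraries. Chil3, a chitinase-like secreted protein, was at an adjusted CPM of 24137 (CONV), 16563 (CONV AsiDNA) and 15906 (FLASH). Siglecf, the sialic acid lectin used to sort AM, was at 80.7, 198 and 249, and Krt79 at 58.1, 402 and 620. Ear1 was at 506, 1052 and 1560, Fabp1 at 38.1, 232 and 399, Car4 at 561, 1239 and 1146, and Cidec at 61.1, 383 and 416. Slc39a2 was at 289, 143 and 131, Plet1 at 1924, 2124 and 2419, and Marco at 436, 128 and 724. The median AM carried 4, 6 and 7 of the 10 markers. At the limit of the gate, with exactly 3 markers, lay 200 CONV cells (24.4% of its AM), 35 CONV AsiDNA cells (5.38%) and 16 FLASH cells (3.36%). The AM had similar median depths of 5248, 4996 and 5017.5 adjusted counts.

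Within AM, 6 of the 10 members (Spp1, Gpnmb, Trem2, Fabp5, Cd63 and Mfge8) were at least 2-fold higher in CONV than in both other libraries, on log2 of adjusted CPM plus 10. None was at least 2-fold lower. Over all 9350 genes with a sum of at least 20 in AM, 1.53% were as much higher and 2.03% as much lower. Since this contrast chose the members, nothing is read from the difference. The median log2 ratio of the members was 1.19 for CONV over FLASH (all genes -0.16) and 1.10 for CONV over CONV AsiDNA (all genes -0.19). Between CONV AsiDNA and FLASH it was -0.06 (all genes 0.03). There, none of the members was at least 2-fold higher in CONV AsiDNA, against 0.471% of genes, and Mmp12 was lower, against 0.385%. The median mitochondrial share of the AM was 2.07%, 0.218% and 2.36% in CONV, CONV AsiDNA and FLASH, and its part in these values was not tested.

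**Figure D1:**
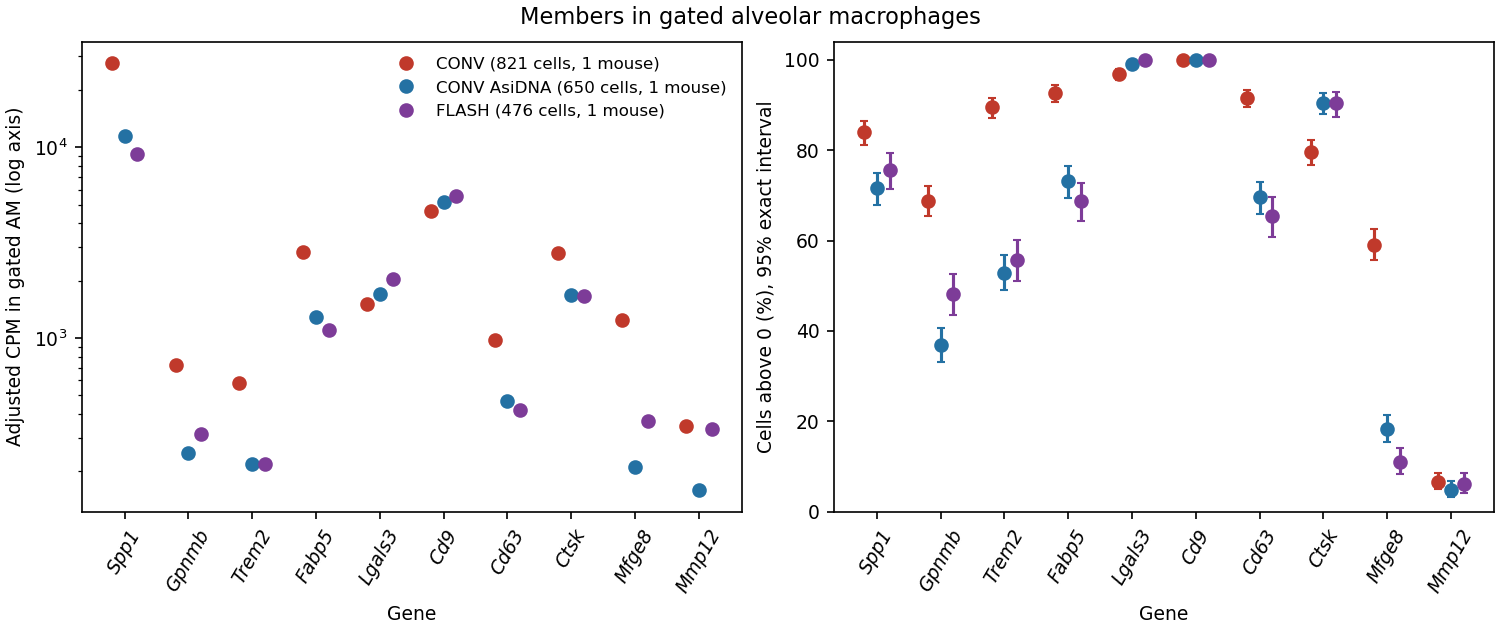
Left, adjusted CPM (log axis) of each member in gated AM of the CONV, CONV AsiDNA and FLASH libraries, 1 mouse each. Right, percentage of those cells above 0 with exact 95% intervals over cells. CONV is the highest point for Spp1, Gpnmb, Trem2, Fabp5, Cd63, Ctsk and Mfge8 on the left, whereas for Lgals3 and Cd9 it is the lowest.

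The secreted members are taken first. Spp1 encodes osteopontin, a matrix phosphoprotein that binds integrins and CD44. Its level in AM was 27612 (CONV), 11399 (CONV AsiDNA) and 9209 (FLASH), a log2 ratio of 1.58 over FLASH and 1.28 over CONV AsiDNA. It was above 0 in 83.9% of CONV AM (81.2 to 86.4%), 71.5% of CONV AsiDNA AM (67.9 to 75.0%) and 75.6% of FLASH AM (71.5 to 79.4%). The shares thus differed less than the levels. The median CONV AM held 84 adjusted counts of Spp1, against 10 and 7 in the other libraries. The tenth of AM with the most Spp1 held 38.3% (CONV), 59.7% (CONV AsiDNA) and 62.6% (FLASH) of its sum, so Spp1 was spread over more of the CONV cells.

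Mfge8 encodes lactadherin, which bridges phosphatidylserine on dying cells to integrins of the phagocyte. Its level in AM was 1250 (CONV), 211 (CONV AsiDNA) and 368 (FLASH). It was above 0 in 59.1% of CONV AM (55.6 to 62.5%), 18.3% of CONV AsiDNA AM (15.4 to 21.5%) and 10.9% of FLASH AM (8.27 to 14.1%). None of the 3 intervals of the share overlapped, and CONV stood farthest from the others. In FLASH, the tenth of cells with the most Mfge8 held 99.5% of its sum, compared with 55.1% in CONV. The FLASH level therefore came from few cells, the highest with 259 adjusted counts.

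Ctsk encodes cathepsin K, a collagen-degrading lysosomal protease best known from osteoclasts. Its level in AM was 2791 (CONV), 1687 (CONV AsiDNA) and 1653 (FLASH). The log2 ratio of CONV was 0.75 over FLASH and 0.72 over CONV AsiDNA, below the 2-fold limit. The share of AM above 0 ran the other way, 79.7% in CONV (76.7 to 82.4%) against 90.5% and 90.3%. After each cell was thinned to 1000 counts the shares were 64.6%, 60.9% and 62.0%, and no order is read from them.

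Mmp12 encodes macrophage elastase. It was above 0 in few AM, 6.58% of CONV cells (4.98 to 8.50%), 4.77% of CONV AsiDNA cells (3.26 to 6.70%) and 6.09% of FLASH cells (4.12 to 8.63%). The intervals overlapped in all 3 libraries. The level was 345 (CONV), 159 (CONV AsiDNA) and 335 (FLASH). Within each library, the tenth of AM with the most Mmp12 held all of it. The log2 ratio of CONV over FLASH was 0.04, and with a gate lead of 0.2 between classes it was -0.55.

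Lgals3 encodes galectin-3, a lectin that binds damaged lysosomes and is secreted in fibrosis. It was above 0 in nearly every AM, 97.0% (CONV), 99.1% (CONV AsiDNA) and 100% (FLASH). Its level was 1502 (CONV), 1707 (CONV AsiDNA) and 2028 (FLASH), so CONV was the lowest, with a log2 ratio of -0.43 over FLASH. Over all cells with no gate, the ratio was 0.43.

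Among the surface members, Trem2 was at 582 in CONV AM, 218 in CONV AsiDNA AM and 220 in FLASH AM. The share above 0 was 89.5% (87.2 to 91.5%), 52.9% (49.0 to 56.8%) and 55.7% (51.1 to 60.2%). CONV AsiDNA and FLASH had overlapping intervals, and CONV lay above both. After thinning to 1000 counts the shares were 41.9%, 16.9% and 16.4%, in which CONV was again the highest.

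Gpnmb, a glycoprotein of lysosomes and the cell surface that rises with lysosomal stress, was at 723 in CONV AM, 248 in CONV AsiDNA AM and 315 in FLASH AM. It was above 0 in 68.8% (65.5 to 72.0%), 36.9% (33.2 to 40.8%) and 48.1% (43.5 to 52.7%) of the cells. The intervals did not overlap, and CONV AsiDNA was the lowest. The log2 ratio of CONV AsiDNA over FLASH was -0.33.

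The tetraspanins, membrane proteins that organise receptor clusters and exosomes, went in different directions. Cd63, the tetraspanin of late endosomes and lysosomes, was at 971 in CONV AM, 468 in CONV AsiDNA AM and 418 in FLASH AM, with 91.6%, 69.5% and 65.3% of cells above 0. Cd9 was above 0 in 100% of AM in each library, and its level was 4651 (CONV), 5176 (CONV AsiDNA) and 5551 (FLASH). The log2 ratio of CONV over FLASH was 1.20 for Cd63 and -0.25 for Cd9. For Cd9 this ratio was 0.58 over all cells with no gate.

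Fabp5, the epidermal fatty acid-binding protein that carries lipid within the cell, was at 2822 in CONV AM, 1285 in CONV AsiDNA AM and 1107 in FLASH AM. It was above 0 in 92.7% (90.7 to 94.4%), 73.1% (69.5 to 76.5%) and 68.7% (64.3 to 72.8%) of them. CONV lay above the other libraries, whose intervals overlapped. The median CONV AM held 12 adjusted counts, against 3 and 2.

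The members were also counted per cell. The median AM had 8 of the 10 members above 0 in CONV and 6 in each other library. At least 5 members were above 0 in 96.6% of CONV AM (95.1 to 97.7%), 80.9% of CONV AsiDNA AM (77.7 to 83.9%) and 84.2% of FLASH AM (80.7 to 87.4%). At least 8 were above 0 in 62.7%, 23.8% and 23.1%. The number of members rose with depth, with a Spearman correlation across cells of 0.30 (CONV), 0.34 (CONV AsiDNA) and 0.32 (FLASH). It fell with the number of AM markers in CONV AsiDNA (-0.28) and FLASH (-0.20), and in CONV the correlation was -0.02. With each cell thinned to 1000 counts, 77.0% of CONV AM, 42.0% of CONV AsiDNA AM and 39.9% of FLASH AM had at least 5 members.

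**Figure D2:**
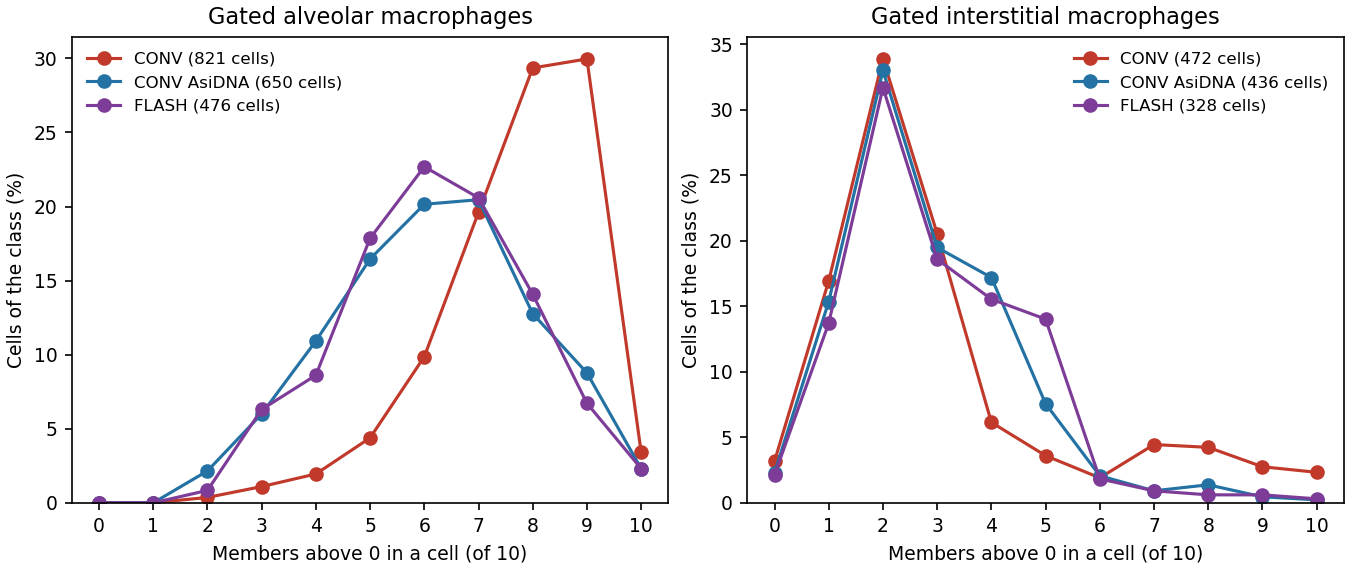
Percentage of gated AM (left) and IM (right) of each library by the number of members above 0 in a cell, from 0 to 10. In AM the CONV curve peaks at 8 to 9 members and the other curves at 6 to 7, whereas in IM all 3 curves peak at 2 and CONV has a second rise from 7.

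Most pairs of members were positively related among AM, weakly at the median. Of the 45 pairs, 39, 41 and 39 had a Spearman correlation above 0. Over the 45 pairs of members, the Spearman correlation across cells had a median of 0.18 (CONV), 0.24 (CONV AsiDNA) and 0.22 (FLASH), where all pairs share depth. The highest pair was Gpnmb with Cd63 in CONV (0.53), and Spp1 with Fabp5 in CONV AsiDNA (0.59) and FLASH (0.56). The lowest were Cd9 with Mmp12 in CONV (-0.09) and FLASH (-0.16), and Spp1 with Lgals3 in CONV AsiDNA (-0.15).

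AM with Gpnmb above 0 were set beside AM without it, as a description, and the part of depth in these values was not tested. Mfge8 was above 0 in 67.6% of CONV AM with Gpnmb and 40.2% of those without, in 33.3% against 9.51% in CONV AsiDNA and in 20.5% against 2.02% in FLASH. Car4, a carbonic anhydrase and AM marker, was lower with Gpnmb, at 352 against 1035, 929 against 1429 and 812 against 1473. Slc39a2, a zinc transporter and AM marker, was higher, at 329 against 199, 228 against 90.3 and 187 against 75.8. Lpl, lipoprotein lipase, was at 7098 against 5910, 6041 against 4112 and 7585 against 4843. C1qa, C1qb and C1qc, which define IM, reached at most 9.83 in the AM with Gpnmb of CONV and were listed at 0 in the others.

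IM were 472, 436 and 328 cells, with C1qa above 0 in 97.9%, 98.6% and 99.7% of them. In IM, 5 of the 10 members (Spp1, Gpnmb, Fabp5, Ctsk and Mfge8) were at least 2-fold higher in CONV than in both other libraries, against 1.59% of 9099 genes. None was at least 2-fold lower, against 0.451%. The median log2 ratio of the members was 1.31 for CONV over FLASH (all genes 0.07) and 1.10 over CONV AsiDNA (all genes 0.05). None was at least 2-fold higher in CONV AsiDNA than in FLASH (1.25% of genes), and Spp1 and Gpnmb were lower (0.736% of genes). Markers of IM differed too. Folr2, the folate receptor of perivascular macrophages, was at 144, 436 and 485, and Lyve1 at 122, 305 and 438. Their part in these values was not tested.

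Spp1 was at 4406 in CONV IM, 244 in CONV AsiDNA IM and 1117 in FLASH IM, and above 0 in 12.9% (10.0 to 16.3%), 1.83% (0.795 to 3.58%) and 3.35% (1.69 to 5.92%). Gpnmb was at 1083, 76.6 and 183, with shares of 14.2% (11.2 to 17.7%), 3.67% (2.11 to 5.89%) and 3.96% (2.13 to 6.68%). In both, CONV lay above the other libraries, whose intervals overlapped. Mfge8 was at 1062, 109 and 188, Fabp5 at 1214, 214 and 159, and Ctsk at 192, 66.6 and 31.3. In CONV AsiDNA only 4 IM, and in FLASH only 3, held any Ctsk.

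The other members were less far apart in IM. Trem2 was above 0 in 73.1%, 68.1% and 75.6% of IM, with overlapping intervals, and its level was 865 (CONV), 489 (CONV AsiDNA) and 544 (FLASH). Cd63 was at 1236, 808 and 916, Lgals3 at 1576, 1055 and 1118, and Cd9 at 411, 435 and 434. Mmp12 was above 0 in 25.0% (21.2 to 29.2%), 31.2% (26.9 to 35.8%) and 28.7% (23.8 to 33.9%) of IM, at levels of 1419, 1340 and 967. IM, not AM, thus had the highest Mmp12 and Trem2 levels of all 17 classes in each library.

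The Spp1, Gpnmb and Mfge8 counts of CONV IM lay in few cells. At least 5 members were above 0 in 19.3% of CONV IM (15.8 to 23.1%), 12.6% of CONV AsiDNA IM (9.65 to 16.1%) and 18.3% of FLASH IM (14.3 to 22.9%), with overlapping intervals. At least 8 were above 0 in 9.32%, 2.06% and 1.52%. The 91 CONV IM with at least 5 members had Spp1 at 18781, Gpnmb at 4620 and Mfge8 at 4527, and the other 381 had 3.29, 0 and 0. These cells were chosen by their members, so the levels are a description. The 91 cells had a median of 5 IM markers and 0 AM markers, and 8.79% of them had at least 2 AM markers. Chil3, an AM marker, was at 758 in the 91 cells and listed at 0 in the other CONV IM and in all IM of CONV AsiDNA and FLASH, where none of the cells had 2 AM markers. F7, a coagulation factor gene of the AM identity list, was at 50.4 in all CONV IM against 1.68 and 1.53. No count is given for that list in IM, since F7 passed the minimum sum through CONV. The median log2 ratio of its 13 tested genes in IM, F7 included, was 0.26 for CONV over FLASH (all genes 0.07). Over CONV AsiDNA it was 0.34 (all genes 0.05). The part of AM transcripts in the member levels of CONV IM was not tested. C1qa was at 5315 in the 91 cells and 9099 in the other CONV IM, Cx3cr1 at 64.4 and 388, and Folr2 at 17.2 and 182. In CONV AsiDNA and FLASH the corresponding 55 and 60 cells had less Spp1 (1791 and 5691) and Mmp12 at 6597 and 3543.

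**Figure D3:**
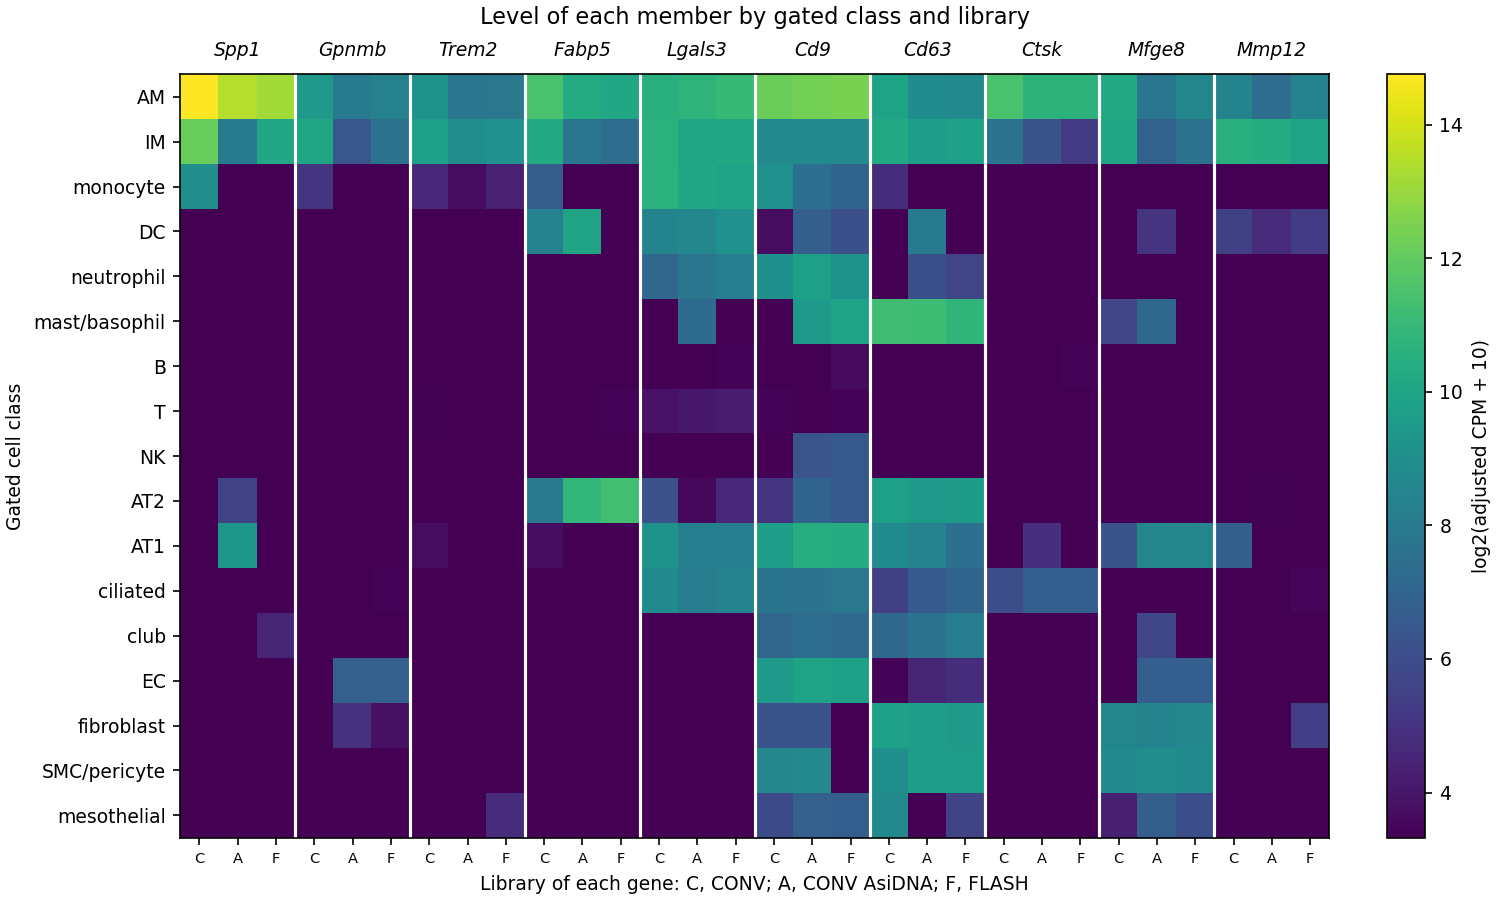
Level of each member, as log2 of adjusted CPM plus 10, by gated class (rows) and by library (C, CONV; A, CONV AsiDNA; F, FLASH). Spp1 and Trem2 are bright in the macrophage rows and Ctsk in the AM row. Fabp5 also appears in AT2 cells, Cd63 in mast cells and basophils and Cd9 in most rows.

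Outside the macrophages the members split by how widely they were found. Spp1 was listed at 0 in 13 to 14 of the 17 classes, and AM held 83.1%, 94.7% and 93.3% of its counts. Its level in AT1 cells of CONV AsiDNA, 648, came from 1 cell of 67 (AT1 cells line the alveoli for gas exchange). Ctsk was similarly held by AM (82.3%, 92.0% and 94.4% of its counts). The next source of Ctsk among named classes of CONV AsiDNA and FLASH was ciliated cells, with 32.9% and 28.9% of them above 0 at levels of 97.9 and 95.2, and 3.65% at 54.8 in CONV.

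Fabp5 was high in AT2 cells, the alveolar epithelial cells that make surfactant lipid. There its level was 231 (CONV), 1839 (CONV AsiDNA) and 2489 (FLASH), and it was above 0 in 13.9% (10.2 to 18.3%), 81.4% (76.9 to 85.3%) and 86.9% (83.2 to 90.1%) of 302, 349 and 390 cells. The order of the libraries was thus opposite to that in AM. AT2 cells held 62.0% of all Fabp5 counts in FLASH and AM 34.5%, whereas in CONV AM held 65.7%. In dendritic cells (DC), Fabp5 was at 311, 1008 and 0, the last listed at 0 in all 174 FLASH cells.

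Endothelial cells (EC) had Gpnmb in 18.1% (14.7 to 22.0%) of CONV AsiDNA and 18.8% (15.4 to 22.6%) of FLASH cells, at levels of 105 and 103. In CONV it was listed at 0 in all 374. Mfge8 in EC followed the same order, with 27.0% and 27.8% of cells above 0 and CONV listed at 0. The sources used here do not describe the adjustment behind the deposited values, and a class listed at 0 in 1 library is not read as absence of the transcript.

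Mfge8 was otherwise a gene of stromal and AT1 cells. In fibroblasts it was at 374, 341 and 377, and in smooth muscle cells and pericytes at 421, 492 and 435, so these classes differed little between libraries. In AT1 cells it was at 66.1 (CONV), 374 (CONV AsiDNA) and 361 (FLASH), with 12.0% (6.57 to 19.7%), 53.7% (41.1 to 66.0%) and 44.4% (35.4 to 53.5%) above 0. In CONV, AM had the highest Mfge8 level of the 17 classes, and in the other libraries smooth muscle cells and pericytes did.

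Cd63 was highest in mast cells and basophils, at 2448, 2321 and 1796, and was above 0 in 96.3 to 98.7% of them. It was near 0 in EC, with at most 3.76% of cells above 0. Cd9 was above 0 in 14 to 15 of the 17 classes, with AM first and AT1 cells second in each library. Lgals3 was at 1578, 1144 and 940 in monocytes, 83.6%, 79.8% and 75.7% of them above 0. CONV had 61 monocytes, CONV AsiDNA 331 and FLASH 423, and the 3 intervals of the share overlapped.

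The cells without a class bear on these totals. In CONV, 188 of 481 such cells (39.1%) had at least 5 members above 0, compared with 19 of 461 (4.12%) and 6 of 348 (1.72%). Of the 188, 160 had 1 or 2 AM markers, 84 had markers of both AM and IM, 125 held Chil3 and 3 held C1qa. Spp1 was at 15923 and Gpnmb at 1785 in them. All CONV cells without a class together held 39.4% of the Mmp12 counts and 24.5% of the Gpnmb counts of the library. Over all kept cells, at least 5 members were above 0 in 1074 CONV cells (16.9%, 15.9 to 17.8%), 603 CONV AsiDNA cells (8.64%, 7.99 to 9.32%) and 467 FLASH cells (7.45%, 6.81 to 8.13%). This share uses no gate, and the number of AM and the number of members per AM both enter it.

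Related genes were followed as lists of shared function, chosen with earlier results of these data known, so their counts are a description. Among 24 other lipid-associated and lysosomal genes with a sum of at least 20 in AM, Psap, Ctsl, Ctsb, Igf1, Syngr1 and Pla2g7 were at least 2-fold higher in CONV than in both other libraries. No count is given, since Apoe passed the minimum sum through CONV alone. The median log2 ratios of the 24, Apoe included, were 0.75 over FLASH (all genes -0.16) and 0.73 over CONV AsiDNA (all genes -0.19). Psap, the precursor of the saposins that help degrade sphingolipids, was at 12246 (CONV), 5742 (CONV AsiDNA) and 5902 (FLASH). The lysosomal protease Ctsl was at 1694, 687 and 653, and Ctsb at 4546, 2174 and 2138. Igf1, a growth factor for fibroblasts and epithelium, was at 598, 163 and 182. Syngr1 was at 146, 25.3 and 21.3 and Pla2g7, a phospholipase of oxidised lipids, at 112, 5.00 and 16.2. Apoe, the lipoprotein component, was at 65.8 in CONV, in 0.609% of AM, and listed at 0 in the others.

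Other lipid genes of the list did not all follow this order. Npc2, a lysosomal cholesterol transfer protein, was at 437, 279 and 60.4, with a log2 ratio of 2.67 for CONV over FLASH and 2.04 for CONV AsiDNA over FLASH, and was lowest in FLASH. Fabp4, a fatty acid-binding protein, was at 1110, 492 and 562, just under the 2-fold limit over FLASH. Plin2, the lipid droplet coat protein, was at 1109, 1026 and 1165, and Nceh1, a cholesterol ester hydrolase, at 949, 1017 and 1113. Lpl was at 6734, 4846 and 6200. In IM, 5 of the 24 were at least 2-fold higher in CONV than in both others and none lower (1.59% and 0.451% of all 9099 genes), including Ctsd at 3628, 936 and 1042 and Acp5 at 349, 128 and 109.

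None of 13 AM identity genes was 2-fold apart in AM, where 1.53% of all genes were higher and 2.03% lower in CONV. Their medians were -0.45 over FLASH (all genes -0.16) and -0.35 over CONV AsiDNA (all genes -0.19). The list holds none of the AM markers of the gate. Of those markers, Plet1, Siglecf, Krt79, Ear1, Fabp1, Car4 and Cidec were lowest in CONV AM, and Chil3 and Slc39a2 highest, as given above. Pparg, the nuclear receptor that sets AM fate, was at 180 (CONV), 332 (CONV AsiDNA) and 336 (FLASH). Abcg1, a cholesterol exporter, was at 1209, 1901 and 2107. The 6 Trem2 signalling genes, 6 osteopontin receptors, 3 phagocytic receptors and 10 paralogs of the members also held no gene 2-fold apart, and nothing is read from this at those background shares. Cd44, an osteopontin receptor, was at 2278, 3084 and 3427. Among the transcription factors, Mitf, a regulator of lysosomal genes, was at 119, 117 and 186.

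Among the matrix and protease partners in AM, no count is given, since some passed the minimum sum through 1 library. Mmp14, a membrane collagenase, was at 106 (CONV), 13.8 (CONV AsiDNA) and 7.24 (FLASH), with 35.2%, 4.92% and 2.73% of AM above 0. Mmp2 was at 24.7 in CONV and listed at 0 in the others. Mmp8, a collagenase best known from neutrophils, was lower in CONV, at 53.6, 174 and 122. Among the profibrotic factors, Il1b, an inflammatory cytokine, was at 194 in CONV AsiDNA and 158 in FLASH and was listed at 0 in CONV, which is not read as absence or as a difference.

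**Figure D4:**
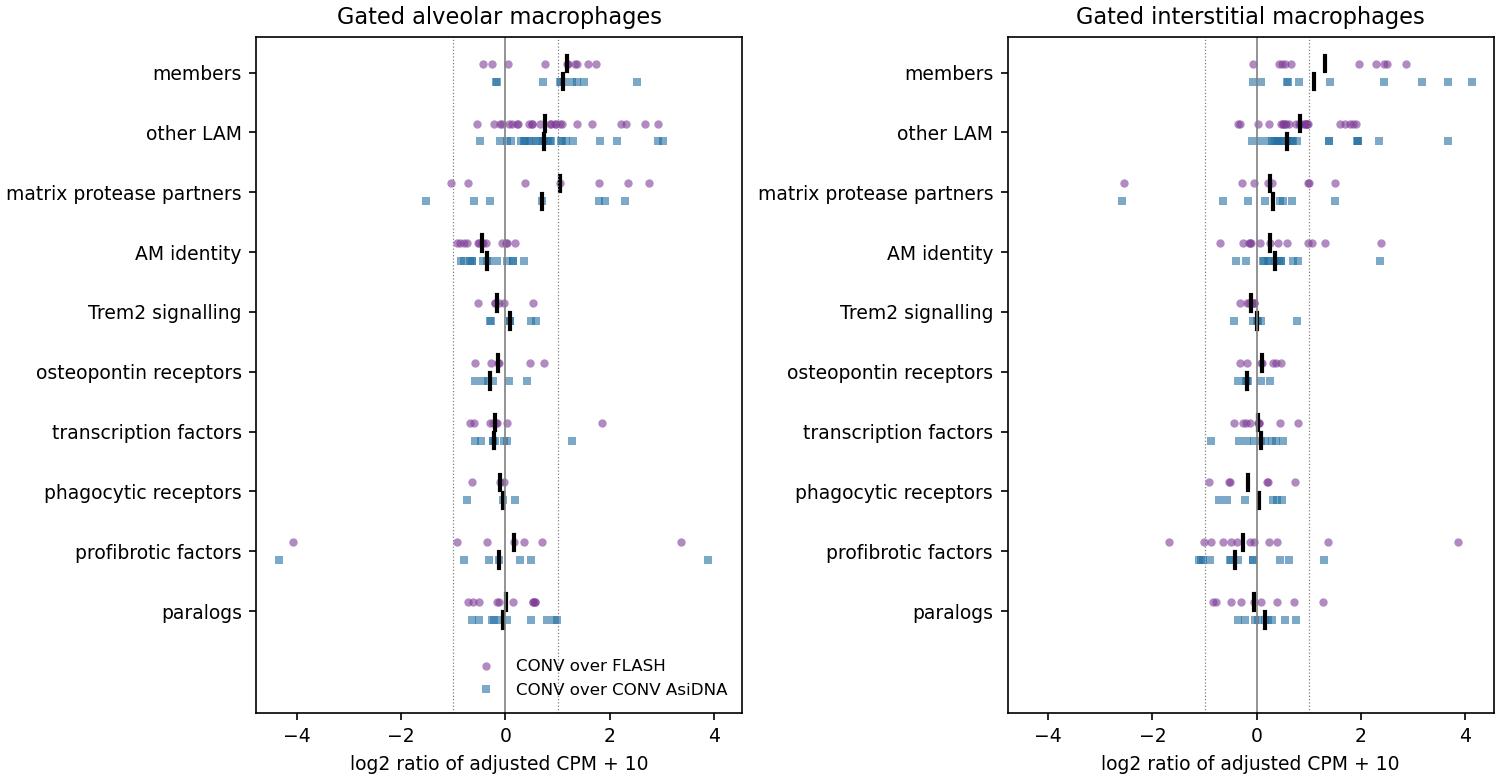
Log2 ratio of adjusted CPM plus 10 for each tested gene of the members and the related lists, in gated AM (left) and IM (right). Circles give CONV over FLASH, squares CONV over CONV AsiDNA, black bars the medians and dotted lines a 2-fold difference. The medians of the members and of the other lipid-associated macrophage (LAM) genes lie above 0 in both classes, and that of the AM identity genes lies below 0 in AM.

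Genes with the most similar pattern were found by Pearson correlation of log2 of adjusted CPM plus 10 over the 51 combinations of class and library, among 10577 genes. The points share libraries and depth, so the correlations describe these data. Closest to the mean of the members were Mrc1 (0.94), Clec4n (0.94), Prune2 (0.93), Gm10134 (0.93) and Siglec1 (0.92). Mrc1, the mannose receptor of macrophages, was lower in CONV AM, at 1877 against 2395 and 2721. The gene closest to Spp1 was Atp6v0d2 (0.95), a subunit of the lysosomal proton pump, followed by Tfec (0.93), and closest to Gpnmb were Lpl (0.92) and Mertk (0.91). Trem2 was closest to Pla2g2d (0.98) and Gm10134 (0.96), Mmp12 to P2ry12 (0.95) and Pla2g2d (0.93), and Ctsk to Vdr and Bhlhe41 (both 0.94). For Lgals3 these were Aph1c (0.86) and Mpeg1 (0.85), for Mfge8 Itgb5 (0.82) and Il11ra1 (0.81), and for Fabp5 Ctsc and Renbp (both 0.80). The closest genes of Cd9 (Adipor2 and Mapk3) and of Cd63 (Glul and Vegfb) were all at 0.73.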

How the data were processed

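Lung libraries of 3 irradiated mice, made with 10x Genomics 3′ chemistry, were analysed. The submitters' processing notes name Cell Ranger 6.0.0 and the build mm10. The authors deposited natural log values, ln(1 + n) for a whole number n per gene and cell, and n, the adjusted count, was recovered from them. How n was adjusted and how cells were filtered upstream is not stated in the sources used here, and totals per cell had a narrow range, so no count model, counting interval or limit for a value of 0 was used. The 12 per-sample columns of 4 further tables, some with the authors' own comparisons, carry identifiers of another organism and were not used.

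Cells with fewer than 200 genes above 0 or a mitochondrial share above 20% were removed (3 of 19622 cells). A cell took the class with the highest share of its markers above 0, with at least 3 markers and a lead of 0.1 over the next class. No doublet caller was run, and removal of cells with 3 markers of a second class was an alternative. Levels are adjusted CPM, and log2 ratios were taken on CPM plus 10, so that changes of low genes are understated, for genes with a sum of at least 20 in the class. Promoters came from RefSeq (GRCm38.p6) and gene positions from GENCODE M21, the same build as mm10.

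The members, the markers and the gene lists were chosen with earlier results of these data known. Named genes are the members, the genes of the related lists, the 5 genes most like the mean of the members and the 2 most like each member. Some genes of the lists are not reported here. The list genes Clec7a and Ear10 are not among the symbols used here. Python 3.11.15, numpy 2.4.6, scipy 1.17.1, pandas 2.3.3 and matplotlib 3.10.9 were used. The calculation of the ratios was tried on simulated Poisson sums, which hold no variation between cells or mice. The plan named no test, and none was run.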

Additional observations from a re-analysis of the deposited data

Results flagged for a closer look

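Among classes with a sum of at least 20 and counts in all 3 libraries, Fabp5, Mfge8, Cd63 and Cd9 were at least 2-fold higher in CONV than in both other libraries in some class and at least 2-fold lower than in both in another. How many other genes meet this rule was not computed, and the AM values are from the contrast that chose the members. Classes listed at 0 in a library, such as EC for Gpnmb in CONV, were left out. The values given are log2 ratios of CONV over FLASH. The differences between classes were not tested, with 1 mouse per condition. Fabp5 was at 1.34 in AM and 2.86 in IM, and at -3.38 in AT2 cells. Mfge8 was at 1.74 in AM and 2.44 in IM, and at -2.29 in AT1 cells. Cd63 was at 1.20 in AM, -1.38 in EC and -1.52 in ciliated cells, and its level in EC was at most 17.8 adjusted CPM. Only AM gave Cd63 its higher side, so its flag followed from the contrast that chose the members and nothing is read from it. Cd9 was at 2.10 in monocytes, of which CONV had 61, at -2.44 in DC and at -1.38 in AT2 cells, where CONV had Cd9 in 1 DC and 6 AT2 cells.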

How the results depend on the processing

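No paired analysis was possible because each condition had 1 library, and no library could be left out. The main values comprised the medians in AM and IM, and the count of members and the shares in AM. Of their 105 values under the alternatives 99 stayed within the limits set for a change, 6 moved and 0 reversed. With AM and IM merged, the share with at least 5 members was 68.4% (CONV), 53.5% (CONV AsiDNA) and 57.3% (FLASH), and with each cell thinned to 1000 counts 77.0%, 42.0% and 39.9%. The number of members at least 2-fold higher in CONV AM than in both others ran from 4 (AM and IM merged) to 7 (all cells with no gate, an alternative added after the data were seen). Alternatives included, the AM medians ran from 0.92 to 1.63 for CONV over FLASH and 0.95 to 1.29 for CONV over CONV AsiDNA. For CONV AsiDNA over FLASH they ran from -0.11 to 0.16. The values 1.63 and 0.16 are over all cells with no gate, not AM. The IM medians ran from 1.23 to 1.34 over FLASH and 0.85 to 1.31 over CONV AsiDNA. Of 500 values of single members 14 moved. CONV over FLASH ran from -0.55 to 1.55 for Mmp12, -0.52 to 0.43 for Lgals3 and -0.28 to 0.58 for Cd9. These ranges cover gated AM and its alternatives, and each upper end is over all cells with no gate, not AM. The cause of the ranges was not tested. Each condition had 1 mouse, thinning lowered the shares as given above, and the adjustment of the deposited values is unknown, and these limits were not ranked.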
